A study of Saccharomyces cerevisiae with 8 samples.

Results

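Peroxiredoxins, thioredoxins and superoxide dismutases form the front line of the budding yeast defence against peroxide and superoxide. The 10 genes described here were chosen by family and function: the peroxiredoxin genes AHP1, TSA1, TSA2 and PRX1, the cytosolic thioredoxin genes TRX1 and TRX2, the thioredoxin reductase gene TRR1, the methionine sulfoxide reductase gene MXR1, and the superoxide dismutase genes SOD1 and SOD2. They are 10 of the 6600 open reading frames in each deposited file. The members were proposed with earlier results of these data in view. In those results AHP1 stood among the largest differences between the strains under rapamycin, and MXR1 among the largest falls with rapamycin in ceg1-AA. AHP1 and MXR1 are therefore described throughout without a p-value, and counts over the members describe them and support nothing.

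In this system superoxide dismutases turn superoxide into hydrogen peroxide, and peroxiredoxins reduce hydrogen peroxide and organic hydroperoxides through a reactive cysteine. Thioredoxins reduce the oxidised peroxiredoxins and methionine sulfoxide reductases, and thioredoxin reductase recharges the thioredoxins with electrons from NADPH. Many of these genes are known targets of the peroxide-responsive transcription factor Yap1 and of the general stress factors Msn2 and Msn4.

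RNA was sequenced from Saccharomyces cerevisiae in which Ceg1, the guanylyltransferase that adds the mRNA cap, can be taken out of the nucleus. In this anchor-away method Ceg1 carries an FRB tag (CEG1-FRB::HIS in the labels), the ribosomal protein Rpl13a carries the FKBP12 partner (RPL13AxFKB12::TRP), and rapamycin joins the tags. All groups were MATalpha and also carried tor1-1, which makes the Tor1 kinase insensitive to rapamycin, and fpr1::NAT, a disruption of the gene for the endogenous rapamycin-binding protein. Cells grew in YPD at 30 °C and received DMSO or 1 µg/mL rapamycin for 45 min. The 4 groups were ceg1-AA with DMSO (2 libraries), ceg1-AA with rapamycin (2 libraries), ceg1-AA/xrn1D with DMSO (1 library; replicate 2 was not analysed here) and ceg1-AA/xrn1D with rapamycin (2 libraries). The ceg1-AA/xrn1D strain also has XRN1 disrupted, the gene for the main cytoplasmic 5′ to 3′ exonuclease. Its replicate 2 genotype text names XRN3 instead. No strain without the FRB tag was analysed here, so depletion of Ceg1 and other effects of rapamycin cannot be told apart. Nothing in the labels says that replicates came from separate cultures, so p-values measure only the spread between these samples, which may be technical.

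Total counts per library ran from 935651 to 3385761 and were lowest in ceg1-AA rapamycin and highest in the ceg1-AA/xrn1D libraries, so depth moved with both strain and treatment. XRN1 had 338 to 794 counts in the 4 ceg1-AA libraries and 0 in the 3 ceg1-AA/xrn1D libraries. Mitochondrially encoded genes were taken only if they had at least 10 counts in every ceg1-AA library, a choice that favours high values in that strain. Of the 20 taken, 16 were at 3 counts or fewer in each ceg1-AA/xrn1D library. The 20 together took 1.409% and 1.135% of counts with DMSO and 3.373% and 2.47% with rapamycin in ceg1-AA. Their share in that strain was thus higher in both rapamycin libraries than in either DMSO library. In ceg1-AA/xrn1D they took 0.1986% with DMSO and 0.2805% and 0.2502% with rapamycin. The strains thus differed in these mitochondrial transcripts as well as in XRN1. The parts of the 2 in any difference between strains cannot be told apart. All 10 members passed the filter on low counts that kept 5879 genes. The lowest count of any member was 7, for MXR1 in a ceg1-AA rapamycin library.

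The members lie on 8 chromosomes of assembly R64, each as a single exon with no overlapping annotated gene. AHP1 (YLR109W) is at chrXII:368781-369311 on the plus strand, TSA1 (YML028W) at chrXIII:220138-220728 on the plus strand, TSA2 (YDR453C) at chrIV:1365072-1365662 on the minus strand and PRX1 (YBL064C) at chrII:100371-101156 on the minus strand. TRX1 (YLR043C) is at chrXII:231702-232013 and TRX2 (YGR209C) at chrVII:912913-913227, both on the minus strand, and TRR1 (YDR353W) is at chrIV:1183299-1184258 on the plus strand. MXR1 (YER042W) is at chrV:234937-235491 on the plus strand, SOD1 (YJR104C) at chrX:622550-623014 and SOD2 (YHR008C) at chrVIII:122889-123590, both on the minus strand.

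TSA1 and TSA2 are paralogs, and so are TRX1 and TRX2, so reads could in principle be split between the copies of a pair. The coding sequences of TSA1 and TSA2 were identical at 78.5% of 591 positions with no identical run longer than 14 bases. Those of TRX1 and TRX2 were identical at 73% of 315 aligned positions with no identical run longer than 17 bases. How reads that fit both copies were counted is not given in the sources used here. The first 60 coding bases of TSA1 (chrXIII:220138-220197, plus strand) and TSA2 (chrIV:1365603-1365662, minus strand), read from the R64 reference, show how often a read meets a difference, with the 9 differing bases in capitals.
TSA1: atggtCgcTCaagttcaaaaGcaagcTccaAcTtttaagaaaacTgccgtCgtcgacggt
TSA2: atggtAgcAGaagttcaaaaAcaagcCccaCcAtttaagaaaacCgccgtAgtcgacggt

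The corresponding stretch around the active site of TRX1 (coding bases 58 to 117, chrXII:231897-231956) and TRX2 (coding bases 61 to 120, chrVII:913108-913167), both on the minus strand, holds 12 differing bases, again in capitals. The codons of the Cys-Gly-Pro-Cys motif that carries out thiol exchange start at coding base 88 in TRX1 and 91 in TRX2.
TRX1: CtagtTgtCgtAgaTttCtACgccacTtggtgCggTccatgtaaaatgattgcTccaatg
TRX2: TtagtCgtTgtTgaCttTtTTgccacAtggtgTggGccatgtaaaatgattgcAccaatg

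The 250 bases before each start codon were searched on both strands for 3 forms of the Yap1 response element (TTACTAA, then TGACTAA, then TTACGTAA) and for AGGGG, the core of the Msn2 and Msn4 element. A Yap1 form was present before 4 of the 10 members (PRX1, TRX2, TRR1 and SOD1), against 10% of 6007 yeast coding genes. AGGGG was present before 5 (AHP1 with 2 copies, TSA1, PRX1, SOD1 and SOD2), against 18.8% of the 6007. TTACTAA was found before 6.69% of the 6007 genes, TGACTAA before 2.98% and TTACGTAA before 0.583%. No match overlapped another. These matches describe letters in a window and not bound sites. The windows that hold the Yap1 forms are shown 5′ to 3′ on the strand of the gene with the match in capitals, which shows the reverse complement where the match was on the opposite strand. They lie at chrII:101270-101299 (PRX1, minus strand), chrVII:913427-913456 and chrVII:913391-913420 (TRX2, minus strand), chrIV:1183095-1183124 (TRR1, plus strand) and chrX:623146-623175 (SOD1, minus strand).
PRX1: ggagatttttaaTTACGTAAagaaacaagg
TRX2, 217 bases before the start codon: ttgtttatactcTTAGTAAaggatgctccc
TRX2, 181 bases before the start codon: gtggctcttttcTTACTAAgcgcgttcagt
TRR1: gttagcttctccTTAGTCAtggagaaaaaa
SOD1: ggtgtgtcggaaTTAGTAAgcggacatccc

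AHP1 had none of the 3 Yap1 forms in this window, which says only that these letters were not there. Its 2 AGGGG matches lay 215 and 165 bases before the start codon, the first on the strand opposite the gene. The windows that hold them are at chrXII:368554-368583 and chrXII:368604-368633 on the plus strand.
AHP1, 215 bases before the start codon: tctttttccacaCCCCTtccggacggtatt
AHP1, 165 bases before the start codon: aatgaaaaataaAGGGGtggaaaattaagg

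Levels were first set side by side within groups, as the authors' deposited TPM, which divides counts by length and by a bias factor. In ceg1-AA DMSO the order was TSA1 (mean 1319 TPM), SOD1 (821), TRX1 (625), TRR1 (373), TRX2 (201), AHP1 (164), MXR1 (126), SOD2 (119), PRX1 (76.5) and TSA2 (25.2). In that group the libraries of neighbours in the order overlapped for AHP1 with MXR1 and for MXR1 with SOD2, and not for the other neighbours. TSA1, the major cytosolic peroxiredoxin, was first in all 4 groups, and its mean TPM was at or above that of at least 97.2% of open reading frames in each. AHP1 moved most in the order: it was 6th in ceg1-AA DMSO, 9th in ceg1-AA rapamycin at 34.9 TPM, and 5th in both ceg1-AA/xrn1D groups at 345 and 335 TPM. In ceg1-AA rapamycin the order ran TSA1 (666 TPM), TRX1 (600), SOD1 (265), TRR1 (234), SOD2 (141), TRX2 (96.2), PRX1 (86.0), TSA2 (49.3), AHP1 (34.9) and MXR1 (18.9), with overlapping libraries for TSA1 and TRX1, for SOD2 and TRX2 and for TRX2 and PRX1. In ceg1-AA/xrn1D rapamycin it ran TSA1 (1079 TPM), SOD1 (610), TRR1 (437), TRX1 (428), AHP1 (335), PRX1 (292), SOD2 (255), TRX2 (173), TSA2 (35.7) and MXR1 (28.7), where TRR1 and TRX1, AHP1 and PRX1, PRX1 and SOD2, and TSA2 and MXR1 overlapped.

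Together the 10 members held 4021 and 3682 TPM with DMSO and 2288 and 2095 TPM with rapamycin in ceg1-AA, and in ceg1-AA/xrn1D 3277 TPM with DMSO and 3798 and 3548 TPM with rapamycin. The summed level was thus lowest in both ceg1-AA rapamycin libraries, with no overlap with any other group. As a share of counts it was 0.223% and 0.21% with DMSO and 0.122% and 0.115% with rapamycin in ceg1-AA, and in ceg1-AA/xrn1D 0.187% with DMSO and 0.209% and 0.203% with rapamycin.

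**Figure D1:**
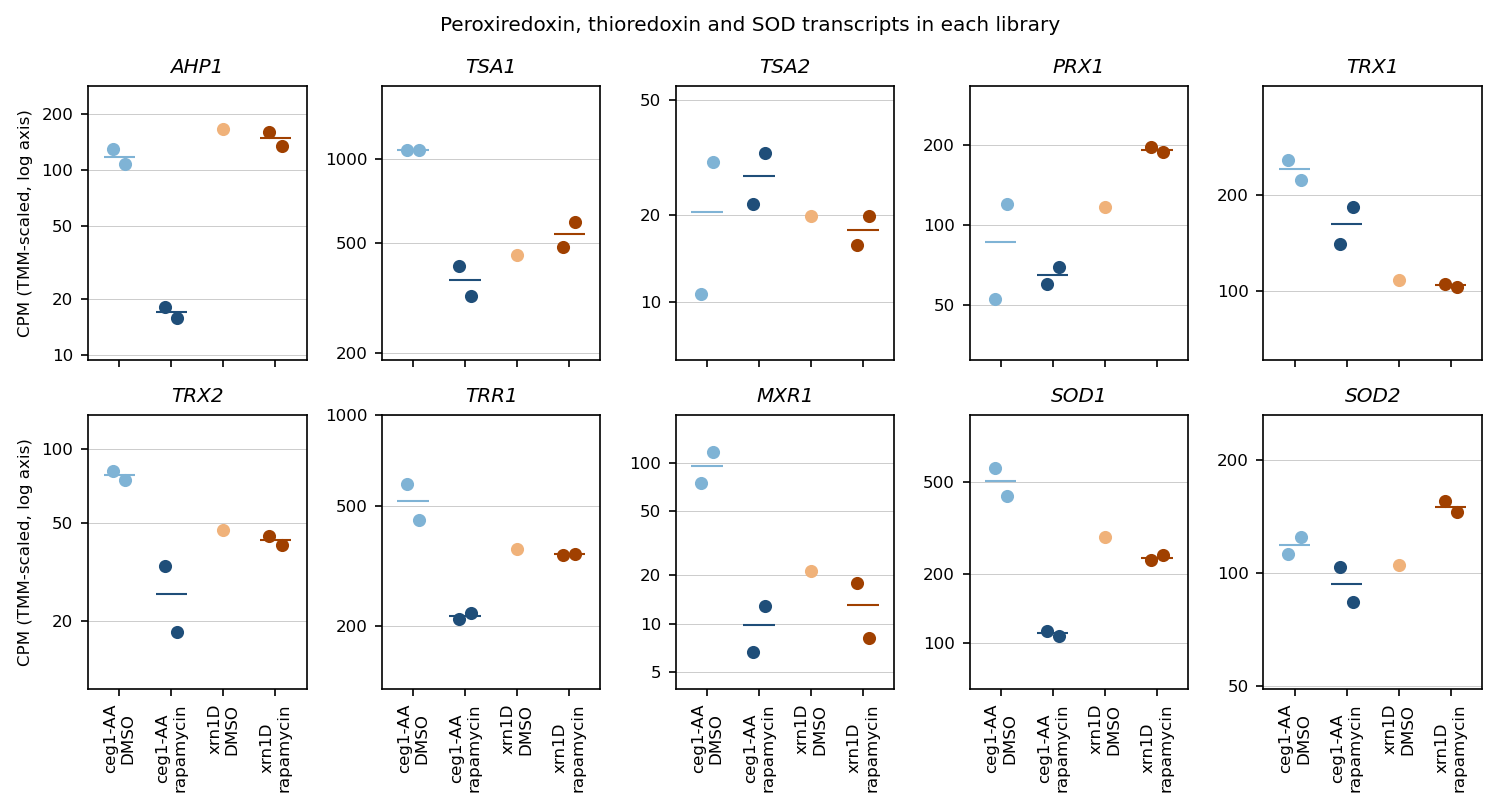
CPM of each of the 10 genes in each of the 7 libraries, scaled by TMM and drawn on a log axis that differs between panels; points are libraries, horizontal bars are means of groups with 2 libraries, and xrn1D stands for ceg1-AA/xrn1D. AHP1 lies at 18.1 and 15.9 CPM in ceg1-AA rapamycin and at 107 CPM or more in the other 5 libraries, and TSA2 and PRX1 have widely separated ceg1-AA DMSO replicates.

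Values between groups are given as CPM, counts scaled to a common library size by TMM, which sets libraries level for most genes, so every change is relative to what else the library holds. Fold changes and p-values come from edgeR's quasi-likelihood test over all 5879 genes with Benjamini-Hochberg adjustment, with a threshold of 0.05. Standard errors are not given by edgeR and were worked out here from each fold change and the F statistic of its test. In RNA from whole cultures a lower level in every cell and fewer cells holding the transcript cannot be told apart.

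Among the peroxiredoxin genes, AHP1 and TSA1 were lower with rapamycin in ceg1-AA, while TSA2 and PRX1 did not pass the test. AHP1 encodes a thioredoxin-dependent peroxidase that prefers organic hydroperoxides. Its CPM was 129 and 107 with DMSO and 18.1 and 15.9 with rapamycin in ceg1-AA, and in ceg1-AA/xrn1D 167 with DMSO and 161 and 135 with rapamycin. The ceg1-AA rapamycin libraries stood alone at the low end, with 19 and 16 counts behind them against 106 to 573 in the others. AHP1 was 6.94-fold lower with rapamycin in ceg1-AA (log2 -2.80 ± 0.22, SE) and 8.66-fold higher in ceg1-AA/xrn1D than in ceg1-AA under rapamycin (log2 3.11 ± 0.21, SE). Those comparisons share the ceg1-AA rapamycin libraries.

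TSA1 encodes the most abundant cytosolic peroxiredoxin, which also acts as a chaperone. Its CPM was 1073 and 1077 with DMSO and 412 and 320 with rapamycin in ceg1-AA, and in ceg1-AA/xrn1D 451 with DMSO and 482 and 592 with rapamycin. The ceg1-AA DMSO libraries were above all others, and rapamycin-treated ceg1-AA libraries were below all others. TSA1 fell by 1.55 ± 0.18 (SE) on the log2 scale with rapamycin in ceg1-AA (edgeR adjusted p 9.87e-05). Under rapamycin it was higher in ceg1-AA/xrn1D by 0.55 ± 0.18 (SE; edgeR adjusted p 0.027). That call was lost without ceg1-AA rapamycin replicate 2 (0.38, adjusted p 0.25) and without ceg1-AA/xrn1D rapamycin replicate 2 (0.39, adjusted p 0.152).

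TSA2, the stress-inducible paralog of TSA1, was the scarcest peroxiredoxin transcript in 5 of 7 libraries, all but those of ceg1-AA rapamycin, where AHP1 was lower. Its CPM was 10.7 and 30.4 with DMSO and 21.9 and 32.8 with rapamycin in ceg1-AA, and in ceg1-AA/xrn1D 19.8 with DMSO and 15.7 and 19.8 with rapamycin. The ceg1-AA groups overlapped, and the DMSO replicates differed by 1.44 on the log2 scale, a gap at least as wide as that of 96.7% of genes. The log2 fold change with rapamycin in ceg1-AA was 0.46 ± 0.44 (SE; edgeR adjusted p 0.412), and it went from -0.16 to 1.35 as 1 or the other DMSO replicate was left out. Between the strains under rapamycin it was -0.61 ± 0.38 (SE; edgeR adjusted p 0.22).

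PRX1 encodes the mitochondrial 1-Cys peroxiredoxin. Its CPM was 52.5 and 120 with DMSO and 60 and 69.6 with rapamycin in ceg1-AA, and in ceg1-AA/xrn1D 117 with DMSO and 196 and 188 with rapamycin. The DMSO replicates of ceg1-AA lay on either side of the rapamycin libraries, and the ceg1-AA/xrn1D rapamycin libraries were the highest of the 7. With rapamycin in ceg1-AA the log2 fold change was -0.38 ± 0.31 (SE; edgeR adjusted p 0.334). Without ceg1-AA DMSO replicate 1 it was -0.89 (adjusted p 0.00151), and without replicate 2 it was 0.30 (adjusted p 0.317), so its sign turned with the replicate kept. Under rapamycin PRX1 was higher in ceg1-AA/xrn1D by 1.57 ± 0.28 (SE; edgeR adjusted p 0.00125), or 2.96-fold.

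The thioredoxin system was lower with rapamycin in ceg1-AA in all 3 of its members, TRX1 not past the threshold with total counts alone. TRX1 encodes a cytosolic thioredoxin and was above TRX2 per length in every library. Its CPM was 257 and 222 with DMSO and 140 and 183 with rapamycin in ceg1-AA, and in ceg1-AA/xrn1D 108 with DMSO and 105 and 103 with rapamycin. The 3 ceg1-AA/xrn1D libraries were nearly level and below every ceg1-AA library. The log2 fold change with rapamycin in ceg1-AA was -0.57 ± 0.16 (SE; edgeR adjusted p 0.0145), and it was -0.06 (adjusted p 0.763) when libraries were scaled by total counts alone and -0.39 (adjusted p 0.142) without ceg1-AA rapamycin replicate 1. On the TPM scale the groups overlapped, at 695 and 556 in DMSO against 548 and 651 in rapamycin. Under rapamycin TRX1 was the only member called lower in ceg1-AA/xrn1D, by -0.63 ± 0.16 (SE; edgeR adjusted p 0.00909), a call lost without ceg1-AA rapamycin replicate 2 (adjusted p 0.124) or ceg1-AA/xrn1D rapamycin replicate 2 (adjusted p 0.0554).

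TRX2, the other cytosolic thioredoxin gene, had CPM values of 81.1 and 75.0 with DMSO and 33.3 and 17.9 with rapamycin in ceg1-AA, and in ceg1-AA/xrn1D 46.8 with DMSO and 44.3 and 40.7 with rapamycin. The ceg1-AA rapamycin libraries were the lowest, and their gap of 0.86 on the log2 scale was at least as wide as that of 95.9% of genes. TRX2 fell by 1.60 ± 0.26 (SE) on the log2 scale with rapamycin in ceg1-AA (edgeR adjusted p 0.000698), and with any 1 library left out the value stayed between -2.12 and -1.23. Under rapamycin it was higher in ceg1-AA/xrn1D by 0.72 ± 0.26 (SE; edgeR adjusted p 0.0408). That call was lost with DESeq2 (adjusted p 0.114), without ceg1-AA rapamycin replicate 2 (0.35, adjusted p 0.354) and without either ceg1-AA/xrn1D rapamycin library (adjusted p 0.155 without replicate 1 and 0.0945 without replicate 2).

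TRR1 encodes the cytosolic thioredoxin reductase. Its CPM was 590 and 449 with DMSO and 211 and 222 with rapamycin in ceg1-AA, and in ceg1-AA/xrn1D 362 with DMSO and 345 and 347 with rapamycin. The 3 ceg1-AA/xrn1D libraries lay between the ceg1-AA groups without overlap. TRR1 fell by 1.26 ± 0.17 (SE) on the log2 scale with rapamycin in ceg1-AA (edgeR adjusted p 0.000193). Under rapamycin it was higher in ceg1-AA/xrn1D by 0.68 ± 0.16 (SE; edgeR adjusted p 0.00715), with an adjusted p of 0.0614 without ceg1-AA rapamycin replicate 1.

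MXR1 encodes the methionine-S-sulfoxide reductase, which repairs oxidised methionine with electrons from thioredoxin. Its CPM was 74.6 and 117 with DMSO and 6.67 and 12.9 with rapamycin in ceg1-AA, and in ceg1-AA/xrn1D 21.3 with DMSO and 18.0 and 8.19 with rapamycin. The ceg1-AA DMSO libraries stood alone at the high end, and the remaining 5 libraries held 7 to 72 counts. MXR1 was 9.68-fold lower with rapamycin in ceg1-AA (log2 -3.27 ± 0.45, SE). Between the strains under rapamycin the groups overlapped, with a log2 difference of 0.41 ± 0.53 (SE) that became -0.25 without ceg1-AA/xrn1D rapamycin replicate 1. The 2 ceg1-AA/xrn1D rapamycin libraries differed by 1.05 on the log2 scale, at least as much as for 99.5% of genes. The gene YEN1 lies within 250 bases upstream of MXR1.

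Of the superoxide dismutase genes, SOD1, for the copper-zinc enzyme of the cytosol, fell in ceg1-AA with rapamycin, and SOD2, for the manganese enzyme of the mitochondrial matrix, did not pass the test. SOD1 CPM was 572 and 433 with DMSO and 113 and 108 with rapamycin in ceg1-AA, and in ceg1-AA/xrn1D 289 with DMSO and 230 and 240 with rapamycin. As for TRR1, the ceg1-AA/xrn1D libraries lay between the ceg1-AA groups. SOD1 fell by 2.18 ± 0.17 (SE) on the log2 scale with rapamycin in ceg1-AA, a 4.54-fold lower level (edgeR adjusted p 1.92e-05). Under rapamycin it was 2.12-fold higher in ceg1-AA/xrn1D (log2 1.08 ± 0.17, SE; edgeR adjusted p 0.000602).

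SOD2 CPM was 112 and 125 with DMSO and 104 and 83.5 with rapamycin in ceg1-AA, and in ceg1-AA/xrn1D 105 with DMSO and 155 and 145 with rapamycin. The ceg1-AA/xrn1D rapamycin libraries were the highest of the 7. The log2 fold change with rapamycin in ceg1-AA was -0.33 ± 0.16 (SE; edgeR adjusted p 0.118), and it was 0.18 with scaling by total counts alone. Under rapamycin SOD2 was higher in ceg1-AA/xrn1D by 0.68 ± 0.15 (SE; edgeR adjusted p 0.00498), with an adjusted p of 0.0689 without ceg1-AA rapamycin replicate 2.

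Counted over the members, 7 of 10 were called lower with rapamycin in ceg1-AA and 0 higher, where 22.8% of all genes tested were called lower and 24.3% higher, 47.1% in all. The 7 were AHP1, TSA1, TRX1, TRX2, TRR1, MXR1 and SOD1, with AHP1 and MXR1 counted by the same rule as the rest. For 8 of 10 the rapamycin libraries lay below the DMSO libraries without overlap, against 32.6% of all genes, and for 0 above, against 40.8%. The median log2 fold change was -1.41 over the members and 0.11 over all genes. No member was called higher with TMM, RLE, total-count or mitochondrial scaling. The count called lower was 6 with total counts alone, where the all-gene median shifted by 0.51, and 9 with scaling to mitochondrially encoded transcripts, where it shifted by -0.68. In ceg1-AA abundant transcripts fell more: the median log2 fold change was -0.51 in the highest quintile of mean level, which held TSA1, TRR1 and SOD1, and 0.09 to 0.42 in the others. MXR1 and TSA2 were in the lowest quintile, TRX2 in quintile 2, AHP1 in quintile 3, and PRX1, TRX1 and SOD2 in quintile 4, and the part of level in the members' values was not tested.

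Under rapamycin, 7 of 10 members were called higher in ceg1-AA/xrn1D than in ceg1-AA and 1 lower, where 21.2% of all genes tested were called higher and 22.5% lower, 43.7% in all. This comparison shares the ceg1-AA rapamycin libraries with that of rapamycin against DMSO in ceg1-AA, so the counts are not separate results. The groups did not overlap for 7 members that were higher, against 38.5% of all genes, and for 2 that were lower (TSA2 and TRX1), against 36.8%. The 7 called higher were AHP1, TSA1, PRX1, TRX2, TRR1, SOD1 and SOD2, and the lower one was TRX1. The median log2 difference was 0.68 over the members and 0.02 over all genes. Differences between strains ran from -0.63 for TRX1 to 3.11 for AHP1, and the next after AHP1 was 1.57, for PRX1. Leaving out 1 library left between 4 and 6 members called higher, with 4 without ceg1-AA rapamycin replicate 2.

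**Figure D2:**
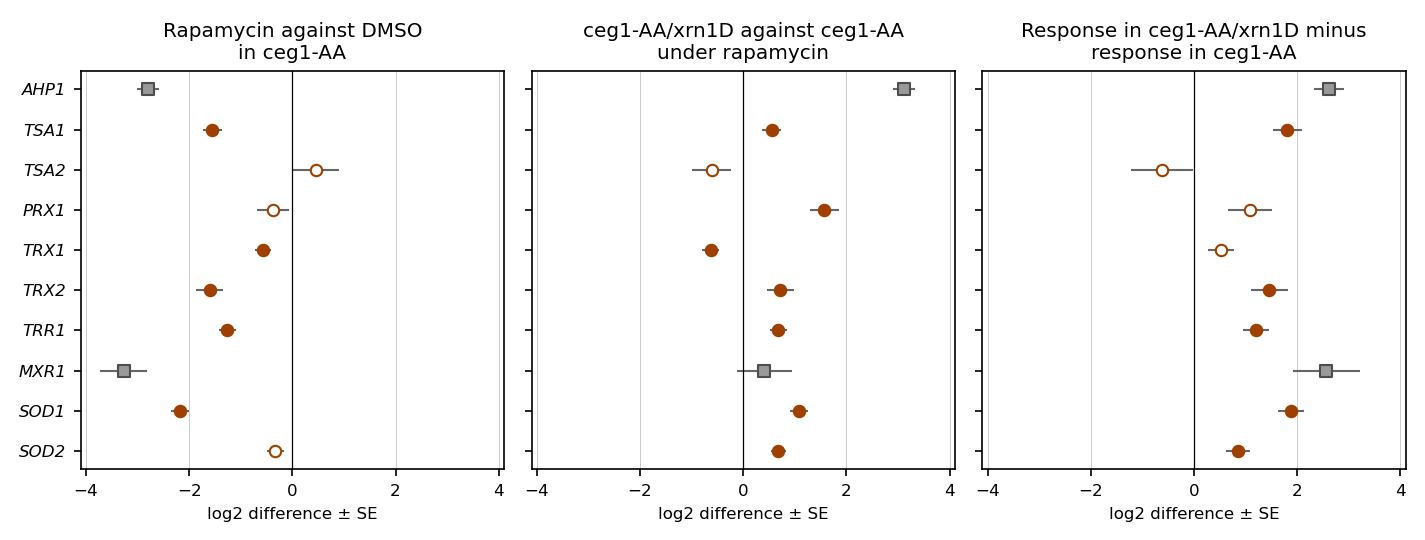
Log2 difference and standard error of each gene in 3 comparisons; filled circles are past an edgeR adjusted p of 0.05 over all genes, open circles are not, and grey squares mark AHP1 and MXR1, which are shown without a test. In the left panel 9 of the 10 values are below 0, in the middle panel AHP1 stands apart at 3.11, and in the right panel 9 of 10 are above 0.

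Rapamycin was also compared with DMSO within ceg1-AA/xrn1D, where the single DMSO library is compared with each of the 2 rapamycin libraries as ratios, without a test. No member changed at least 2-fold in both pairs, where 0.323% of all genes were that much higher and 0.187% that much lower. AHP1 had a mean log2 ratio of -0.18 (pairs -0.30 and -0.05), TSA1 of 0.24 (0.10 and 0.39), TRX2 of -0.14 (-0.20 and -0.08), TRR1 of -0.06 (-0.07 and -0.06) and SOD1 of -0.30 (-0.33 and -0.27). Each of these genes, lower with rapamycin in ceg1-AA, thus stayed on average within 1.23-fold of the DMSO library here. PRX1 (0.70, pairs 0.67 and 0.73) and SOD2 (0.51, pairs 0.47 and 0.56), the mitochondrial peroxiredoxin and dismutase genes, were the largest rises, and MXR1 (-0.76, pairs -1.29 and -0.24) was the largest fall. TRX1 was at -0.05 (pairs -0.07 and -0.04), and at 0.01 with total counts alone. TSA2 was at -0.16 (pairs -0.32 and, after rounding, 0.00). TSA2 is still counted as lower in both pairs, as are TRX1 and TRR1, whose ratios lay near 0. In both pairs 3 members were higher and 7 lower, against 39.3% and 39.2% of all genes, and the median was -0.10 over the members and 0.00 over all genes.

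The difference between those responses was tested as an interaction in the fit over 7 libraries. This test was added after seeing the data, and it shares the ceg1-AA rapamycin libraries with the tested comparisons above. The lone ceg1-AA/xrn1D DMSO library is assumed to vary like the other groups. Each value also holds the difference between the strains under DMSO, which rests on that library. That difference was -2.08 for MXR1, -1.25 for TSA1, -0.78 for SOD1, -0.73 for TRX2, -0.51 for TRR1, -0.18 for SOD2 and 0.50 for AHP1. The response in ceg1-AA/xrn1D was above that in ceg1-AA for 7 of 10 members past the threshold and below it for 0, where 11.9% of all genes were called above and 9.66% below, 21.5% in all. SOD1 differed by 1.88 ± 0.26 (SE; edgeR adjusted p 0.00232), TSA1 by 1.81 ± 0.28 (adjusted p 0.00405), TRX2 by 1.46 ± 0.36 (adjusted p 0.0181), TRR1 by 1.20 ± 0.26 (adjusted p 0.0113) and SOD2 by 0.85 ± 0.24 (adjusted p 0.0296). The 7 also count AHP1, which differed by 2.62 ± 0.29 (SE), and MXR1, by 2.56 ± 0.65 (SE). Both had been singled out by earlier results of these data, so the count describes the members and supports nothing. PRX1 was at 1.09 ± 0.43, TRX1 at 0.52 ± 0.25 and TSA2 at -0.62 ± 0.60 (SE), and none of these was past the threshold. With total counts alone TRX2 (1.01, adjusted p 0.0625) and SOD2 (0.40, adjusted p 0.226) were no longer called, and the all-gene median shifted by -0.45. TRX2 was also not called without ceg1-AA rapamycin replicate 2 (1.09, adjusted p 0.0671), or without either ceg1-AA/xrn1D rapamycin library (1.40 and 1.52, adjusted p 0.0658 and 0.0572). SOD2 was not called without the same libraries (0.71, 0.80 and 0.90, adjusted p 0.113, 0.0864 and 0.0715) or by DESeq2 (0.91, adjusted p 0.0569). The value of PRX1 turned on the ceg1-AA DMSO replicate kept: it was 1.60 without replicate 1 (edgeR adjusted p 7.8e-05) and 0.41 without replicate 2 (adjusted p 0.309). Without ceg1-AA/xrn1D rapamycin replicate 1, 4 members were past the threshold. By level, the median of all genes in this difference was -0.38 in the lowest quintile and 0.42 in the highest.

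**Figure D3:**
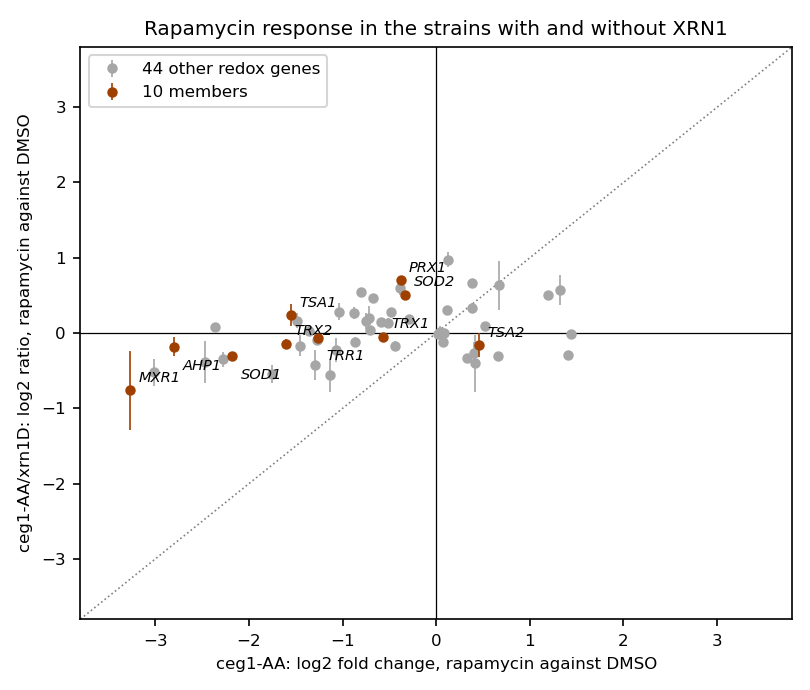
Rapamycin response of the 10 genes (labelled) and of 44 other redox genes in the 2 strains, as edgeR log2 fold change in ceg1-AA (horizontal) and mean log2 CPM ratio to the single DMSO library in ceg1-AA/xrn1D (vertical; bars span the 2 pairs). The dotted line marks equal responses; AHP1 lies at -2.80 and -0.18, SOD1 at -2.18 and -0.30, and TSA2 at 0.46 and -0.16.

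Without rapamycin, the single ceg1-AA/xrn1D DMSO library was compared with each ceg1-AA DMSO library, again with no test. TSA1 (-1.25 in both pairs), TRX1 (-1.14, pairs -1.24 and -1.03) and MXR1 (-2.08, pairs -2.40 and -1.76) were lower by at least 2-fold in both pairs with XRN1 disrupted, 3 of 10 against 7.14% of all genes. No member was at least 2-fold higher, against 7.55% of all genes. TRX2 was at -0.73, TRR1 at -0.51, SOD1 at -0.78 and SOD2 at -0.18, each lower in both pairs, so that 7 members were lower in both, against 39.5% of all genes. AHP1, at 0.50 (0.37 and 0.63), was the only member higher in both, where 44.1% of genes were, and PRX1 (0.56) and TSA2 (0.13) were mixed between the pairs, as the ceg1-AA DMSO replicates lay apart. The scaling matters here: with total counts alone, where the all-gene median shifted by 0.53, TRR1 was at 0.04 and SOD2 at 0.36, and 1 member in place of 3 was at least 2-fold lower. AHP1 was at 1.04 and MXR1 at -1.54 on that scale.

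Ratios between genes within a library do not depend on scaling between libraries, though the TPM used here includes the deposited bias factor. TSA1 exceeded TSA2 by 101-fold and 35.4-fold in TPM in the ceg1-AA DMSO libraries, 18.8-fold and 9.76-fold in ceg1-AA rapamycin, 22.7-fold in ceg1-AA/xrn1D DMSO, and 30.7-fold and 29.9-fold in ceg1-AA/xrn1D rapamycin. The ratio was lower in both rapamycin libraries of ceg1-AA than in any other library. It is imprecise in ceg1-AA, where TSA2 held 13 and 30 counts with DMSO and 23 and 33 with rapamycin. SOD1 exceeded SOD2 by 8.18-fold and 5.70-fold with DMSO and 1.74-fold and 2.07-fold with rapamycin in ceg1-AA, and in ceg1-AA/xrn1D 4.21-fold with DMSO and 2.29-fold and 2.51-fold with rapamycin, so that it was lower in each rapamycin library than with DMSO in the same strain. TRX1 exceeded TRX2 by 3.21-fold and 2.99-fold in ceg1-AA DMSO, 4.24-fold and 10.3-fold in ceg1-AA rapamycin, and between 2.34-fold and 2.55-fold in the ceg1-AA/xrn1D libraries. TSA1 exceeded AHP1 by 7.37-fold and 8.81-fold in ceg1-AA DMSO, 20.2-fold and 17.8-fold in ceg1-AA rapamycin, and between 2.42-fold and 3.93-fold in the ceg1-AA/xrn1D libraries. This last ratio did not overlap between those 3 sets of libraries.

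**Figure D4:**
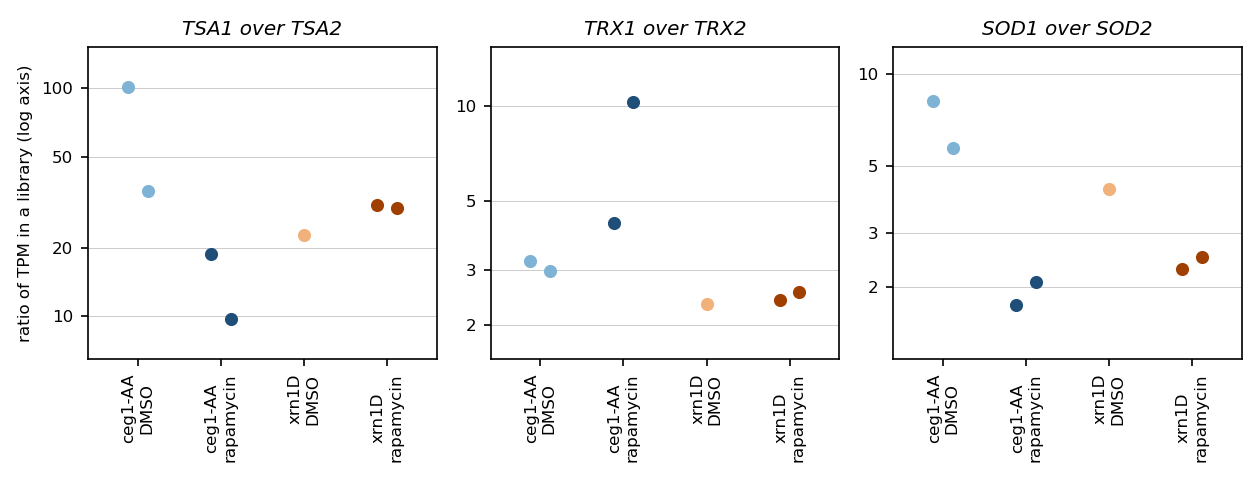
Ratio of TPM between paired genes in each library (log axis that differs between panels; points are libraries; xrn1D stands for ceg1-AA/xrn1D). TSA1 over TSA2 is lowest in ceg1-AA rapamycin at 18.8 and 9.76, SOD1 over SOD2 is lowest there at 1.74 and 2.07, and TRX1 over TRX2 is highest there at 4.24 and 10.3.

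The other genes of the redox pathways came from a list of 45, chosen with earlier results of these data known, of which 44 passed the filter on low counts. SRX1, for the sulfiredoxin that repairs overoxidised peroxiredoxins, did not pass, with at most 2.86 CPM in any library. In ceg1-AA with rapamycin 20 of the 44 were called lower and 6 higher, with a median log2 fold change of -0.49, against the 22.8% of all genes lower and 24.3% higher given above. These counts moved to 12 lower and 12 higher with total counts alone, and none was called higher with scaling to mitochondrially encoded transcripts. Under rapamycin 19 of 44 were called higher in ceg1-AA/xrn1D and 2 lower, with a median of 0.51, against 21.2% and 22.5% of all genes.

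Among peroxidases and catalases, HYR1, whose product senses peroxide and passes the signal to Yap1, fell by 2.36 ± 0.25 (SE) on the log2 scale with rapamycin in ceg1-AA (edgeR adjusted p 6.28e-05), from 70.2 ± 5.37 CPM to 13.6 ± 1.79 CPM (SD, n = 2 each). Under rapamycin it was higher in ceg1-AA/xrn1D by 1.67 ± 0.24 (edgeR adjusted p 0.00035). CCP1, for mitochondrial cytochrome c peroxidase, fell by 1.49 ± 0.16 in ceg1-AA (adjusted p 7.77e-05) and was at 0.06 ± 0.16 between the strains. The catalase genes were not among the falls: CTA1, for catalase A, rose by 1.41 ± 0.17 in ceg1-AA (edgeR adjusted p 0.000126), and CTT1, for cytosolic catalase T, was at 0.67 ± 0.33 (adjusted p 0.117). CTT1 was higher in ceg1-AA/xrn1D under rapamycin by 2.08 ± 0.27 (edgeR adjusted p 0.000185), and by a mean of 2.08 under DMSO. GPX2 was at 0.11 ± 0.29 in ceg1-AA and 0.61 ± 0.24 between the strains, with no call in either.

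Of the mitochondrial and nuclear relatives, TRX3, for mitochondrial thioredoxin, fell by 1.04 ± 0.28 in ceg1-AA (edgeR adjusted p 0.0107) and was higher in ceg1-AA/xrn1D under rapamycin by 1.84 ± 0.24 (adjusted p 0.00021). TRR2, for mitochondrial thioredoxin reductase, was at -0.29 ± 0.22 in ceg1-AA (adjusted p 0.301) and higher in ceg1-AA/xrn1D by 0.67 ± 0.19 (adjusted p 0.0164). MXR2, for mitochondrial methionine-R-sulfoxide reductase, was at -0.51 ± 0.26 and 0.46 ± 0.24, and DOT5, for a nuclear thiol peroxidase, at 0.40 ± 0.59 and -0.40 ± 0.50, with no call. The accessory genes of the dismutases parted: CCS1, the copper chaperone gene for Sod1, fell by 0.72 ± 0.19 in ceg1-AA (edgeR adjusted p 0.0105), and MTM1, needed for Sod2 activity, rose by 1.44 ± 0.16 (adjusted p 7.24e-05). Between the strains under rapamycin CCS1 was at -0.41 ± 0.19 (adjusted p 0.0996), and MTM1 was lower in ceg1-AA/xrn1D by -0.50 ± 0.14 (adjusted p 0.0156).

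In glutathione metabolism GSH1, for the first enzyme of glutathione synthesis, fell by 1.36 ± 0.18 in ceg1-AA (edgeR adjusted p 0.000211), and GLR1, for glutathione reductase, fell by 1.27 ± 0.16 (adjusted p 0.000161). Under rapamycin they were higher in ceg1-AA/xrn1D by 0.96 ± 0.18 and 0.84 ± 0.16 (edgeR adjusted p 0.00154 and 0.00179). The glutaredoxin genes GRX1 and GRX2 were at -0.80 ± 0.31 and -0.39 ± 0.17 in ceg1-AA with no call, and GRX2 was higher in ceg1-AA/xrn1D by 1.48 ± 0.15 (edgeR adjusted p 5.77e-05). ZWF1, for glucose-6-phosphate dehydrogenase, a source of the NADPH that thioredoxin reductase uses, fell by 1.75 ± 0.15 in ceg1-AA (edgeR adjusted p 2.93e-05) and was at 0.26 ± 0.15 between the strains (adjusted p 0.189). Of the 5 regulator genes in the list, 4 were not called in ceg1-AA: YAP1 was at 0.02 ± 0.16 (edgeR adjusted p 0.942), SKN7 at 0.08 ± 0.18, MSN2 at 0.07 ± 0.31 and MSN4 at 0.04 ± 0.18. The fifth, YBP1, for a protein that binds Yap1, rose by 0.52 ± 0.16 in ceg1-AA (edgeR adjusted p 0.021) and was higher in ceg1-AA/xrn1D under rapamycin by 0.55 ± 0.15 (adjusted p 0.0114); it is named after its values were seen. Under rapamycin MSN4 (0.91 ± 0.16, edgeR adjusted p 0.00128) and MSN2 (0.83 ± 0.26, adjusted p 0.0257) were higher in ceg1-AA/xrn1D, and YAP1 was at 0.40 ± 0.15 (adjusted p 0.051) and SKN7 at -0.03 ± 0.17.

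**Figure D5:**
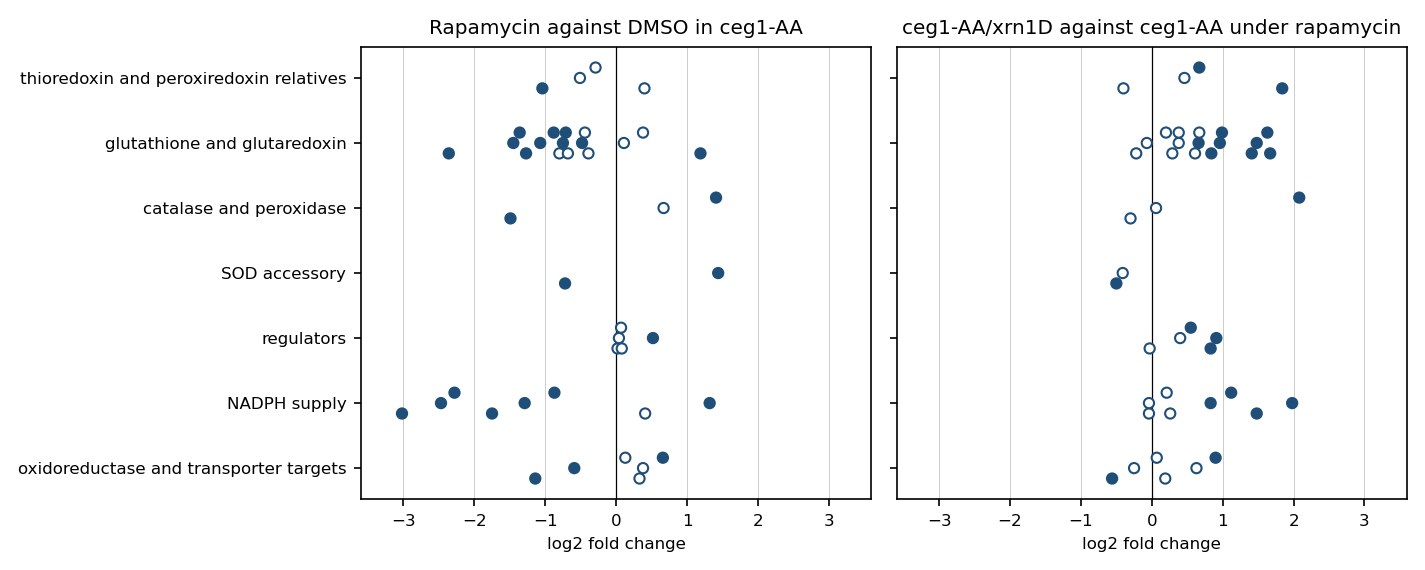
Log2 fold change of the 44 other redox genes by role with rapamycin in ceg1-AA (left) and between strains under rapamycin (right); filled points are past an edgeR adjusted p of 0.05 over all genes, and vertical offsets within a role only separate points. On the left, called genes lie on both sides of 0 (20 lower, 6 higher), and on the right 19 of the 21 called genes are above 0.

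The genes whose pattern over the 7 libraries was most like that of AHP1, TSA1, TRX2 and SOD1 were found by the root mean square difference of log2 CPM, each centred on its mean, among genes with a mean of at least 50 CPM. For AHP1 they were HSP10 (0.155), YAL004W (0.282) and YCR024C-B (0.349) of 3880 genes compared, and the nearest member was SOD1 at 0.85. TSA1 was nearest to COF1 (0.142), PYP1 (0.148) and YKL153W (0.149), and among the members to TRX2 (0.263). For TRX2 they were ALO1 (0.169), ARF2 (0.171) and GGA2 (0.199). SOD1 was nearest to PMA1 (0.11), SND3 (0.119) and GET3 (0.151), and among the members to TRX2 (0.312). The distance from AHP1 to its nearest member was wider than the distances of TSA1, TRX2 and SOD1 to theirs. This measure grows with the size of a change, and AHP1 had been singled out by a large difference in these libraries. Its wider distance is therefore no separate result.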

How the data were processed

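The authors deposited, for each library, a whole-number count per open reading frame, with a length, a bias factor and a TPM value that, per the file headers and the values, is the count divided by length and bias and rescaled to a fixed total. Per the submitters' processing notes, FastQC 0.11.5, HISAT2 2.1.1, SAMtools 1.15.1 and DESeq2 were used with builds R64 and sacCer3. The counting program, its use of strand and any filter are not given in the sources used here. Counts were fitted here in edgeR 4.0.16 (R 4.3.3): filterByExpr kept 5879 genes, TMM scaled 7 libraries, and a quasi-likelihood model had 1 coefficient per group. The model was also run on simulated counts drawn with the spread it had estimated itself. That run cannot show whether the model suits these data. The adjusted p threshold was 0.05 over all genes. Ratios to a single library used log2 CPM with a prior count of 2. Alternatives were RLE and total-count scaling, mitochondrial scaling, no low-count filter, DESeq2 1.42.0, a fit of the 4 libraries compared, a replicate block and leaving out each library.

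The members, the list of 45 other redox genes, the genes named from it, the motifs and the likeness rule were chosen with earlier results of these data known; all members and 21 genes of that list are named whatever their values. Promoter windows are the 250 bases before the start codon. Sequences and positions are from RefSeq assembly R64.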

Additional observations from a re-analysis of the deposited data

Results flagged for a closer look

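For 5 tested genes the response to rapamycin differed between the strains past the threshold in the interaction added after seeing the data, where 11.9% of all genes were called above, 9.66% below and 21.5% in all, with the lone ceg1-AA/xrn1D DMSO library assumed to vary like the other groups. The response in ceg1-AA/xrn1D minus that in ceg1-AA, on the log2 scale, was 1.88 for SOD1, 1.81 for TSA1, 1.46 for TRX2, 1.20 for TRR1 and 0.85 for SOD2. Each value also holds the difference between the strains under DMSO, which rests on that lone library. That difference was -0.78 for SOD1, -1.25 for TSA1, -0.73 for TRX2, -0.51 for TRR1 and -0.18 for SOD2. Under rapamycin the strains differed by 1.08, 0.55, 0.72, 0.68 and 0.68 in the same order. Leaving out 1 library ended the call of TRX2 or SOD2 in 3 cases each. AHP1 at 2.62 and MXR1 at 2.56 are given as values only, since large differences in these libraries had singled them out. Without ceg1-AA/xrn1D rapamycin replicate 1 the number of members above the threshold was 4. Depth and the mitochondrial transcripts counted here also differed between the strains. Their part and that of XRN1 in these differences cannot be told apart.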

How the results depend on the processing

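Most values kept their direction and side of the threshold. Reversals and changed counts are given here, single genes' calls in part beside their results, and except for leaving out a library, which leaves fewer samples, the cause was not tested. With rapamycin in ceg1-AA, leaving out 1 library left 6 to 8 members called lower and 0 to 1 higher (1 without ceg1-AA DMSO replicate 2, TSA2), and 15 to 18 of the other redox genes lower and 4 to 7 higher. Total counts alone gave 12 other redox genes higher and 12 lower, and mitochondrial scaling gave 0 higher. TSA2 changed sign with mitochondrial scaling (-0.25) and without ceg1-AA DMSO replicate 1 (-0.16; range -0.16 to 1.35). PRX1 changed sign with total counts alone (0.13) and without ceg1-AA DMSO replicate 2 (0.30; range -0.89 to 0.30), and SOD2 with total counts alone (0.18); mitochondrial scaling made both calls (-1.11 and -1.04, edgeR adjusted p 0.0151 and 0.0182). Between the strains under rapamycin, leaving out 1 library left 4 to 6 members higher and 0 to 1 lower, and 15 to 17 other redox genes higher and 0 to 1 lower; total counts alone and DESeq2 each left 1 lower. MXR1 there went from -0.25 to 0.96. For the interaction 4 to 8 members were above and 0 to 1 below, and TSA2 went from -1.50 (called, adjusted p 0.0427, without ceg1-AA DMSO replicate 2) to 0.00. In the ratios without a test, leaving out 1 library left 0 to 1 members lower by 2-fold or more after rapamycin in ceg1-AA/xrn1D, and 0 to 1 higher by that much between the strains under DMSO, where total counts alone left 1 lower by that much. Of the calls in ceg1-AA 51.6% were higher with TMM, 81.8% with total counts alone, 40.5% with DESeq2 and 4.04% with mitochondrial scaling; for the interaction these were 55.1%, 15.1% with total counts alone and 73.8% with DESeq2.

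Differences between replicates were correlated across genes, at 0.1312 for ceg1-AA DMSO with ceg1-AA rapamycin. With ceg1-AA/xrn1D rapamycin the values were -0.149 for ceg1-AA DMSO and -0.027 for ceg1-AA rapamycin. Each group gives a single, noisy difference per gene, so these values cannot decide whether the replicate numbers pair the samples. A replicate block left 7 members lower in ceg1-AA and 7 higher and 1 lower between the strains, as without it, with 1338 genes higher and 1293 lower in ceg1-AA in place of 1429 and 1338. AHP1, TSA2, TRX2 and MXR1 rest on 7 to 35 counts in each ceg1-AA rapamycin library, which limits their precision.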
